A study of Sus scrofa with 6 samples.

Results

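Solute carriers are the membrane proteins that move sugars, amino acids, metals, vitamins, organic ions and metabolites across the plasma membrane and the membranes of organelles. Solute carrier genes numbered 113, with 170 probe sets, out of 6765 genes that have a probe set with a single symbol in the platform annotation. They were the genes whose symbol begins with SLC, a family number, A and a member number, or with SLCO, other than SLC2A1. Each gene was read from 1 probe set, the one with the highest mean signal over the 6 arrays. Of the 113 genes, 75 had 1 probe set and 38 had 2 or more. They belong to 38 families and were grouped into 14 classes by substrate.

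The arrays measured RNA of porcine ovarian follicles from prepubertal gilts, sorted by morphology and diameter into 3 stages titled primordial, middle and last, with 2 arrays each. The sources used here give no breed, exact age, diameter or treatment. The titles call both arrays of a stage biological replicates but do not say how many animals or follicles each pools, so the p-values measure the spread between these arrays. The description is the same for all 6 samples and calls each of them primordial, which conflicts with the titles, and the titles are followed here.

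A follicle is an oocyte surrounded by granulosa cells, which in larger follicles are wrapped by theca cells. Granulosa cells take up glucose and amino acids and pass pyruvate and amino acids to the oocyte through gap junctions, because the oocyte itself uses glucose poorly. Carriers of the SLC2 and SLC5 families bring sugars into cells, those of SLC1, SLC7 and SLC38 amino acids, those of SLC11, SLC30, SLC31, SLC39 and SLC41 carry metals, and those of SLC25 connect mitochondria with the cytosol.

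Marker genes of ovarian cell types separated the stages and went in part against the titles. The summed signal of 10 oocyte genes was 459.4 and 492.6 on the primordial arrays, 20026.7 and 21758.2 on the middle and 881.5 and 882.3 on the last arrays, and the oocyte genes DPPA5 and PADI6 were at 16 or less on both primordial arrays. Summed signals of 17 immune cell genes ranged from 54280.5 to 61750.9 on the primordial, from 2789.8 to 3255.6 on the middle and from 4003.9 to 10993.7 on the last arrays. For 12 granulosa cell genes the ranges were 40739.6 to 53887.4, 13559.2 to 19591.0 and 59489.7 to 65633.7 in the same order. For 9 stromal fibroblast genes they were 1439.8 to 1462.8, 16674.4 to 25313.7 and 22128.2 to 24983.5. For 6 theca genes they were 6021.2 to 6389.6, 3390.2 to 4699.0 and 19792.7 to 22867.8, and for 7 smooth muscle genes 6062.7 to 6583.9, 8518.2 to 9884.8 and 29884.8 to 30056.5. The 8 endothelial genes summed to 1840.9 to 2054.4, 1619.1 to 2039.9 and 3612.2 to 4143.4. In RNA of whole follicles, fewer cells of a type and less RNA per cell cannot be told apart.

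Of the 113 genes, 77 had a mean signal in the upper 60% of all probe sets and were tested with limma, whose p-values were adjusted by the Benjamini-Hochberg method over 14399 probe sets. A difference was called at an adjusted p under 0.05 and is given as a log2 difference of signal + 16 with its standard error (SE), a scale that shrinks the changes of dim genes. The first comparison is that of the middle with the primordial stage, the second that of the last with the middle, and the third that of the last with the primordial. Signals of different probe sets cannot be ranked against each other. Among these 77 genes, 38 differed between stages by limma's F-test (49.4%, against 48.6% of all 5432 genes tested). Of those 38, the mean signal was highest in the primordial stage for 21, in the middle stage for 11 and in the last stage for 6, which is 55.3%, 28.9% and 15.8%. Over all 2642 genes with such a difference the shares were 41.1%, 36.3% and 22.7%. Only 20 of the 77 genes passed the F-test without primordial replicate 2 and 22 without middle replicate 1.

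The glucose carrier SLC2A3, the fructose carrier SLC2A5 and the lactate carrier SLC16A3 were 7.71-fold, 6.99-fold and 6.15-fold lower in middle than in primordial follicles, as folds of signal + 16. The arginine and lysine carrier SLC7A1 was 6.79-fold and the phagosomal metal carrier SLC11A1 9.47-fold lower. The copper carrier SLC31A2 was 5.25-fold and SLC46A2 2.97-fold higher. In all, 30 of the 77 genes were called (39%, against 45.5% of all genes tested), 9 higher (11.7%) and 21 lower (27.3%). Among all genes tested, 22.9% were higher and 22.5% lower. The median log2 difference of the 77 genes was -0.14, and that of all genes tested 0.06. Without the filter on low signals, 29 of all 113 genes were called (against 34.4% of all genes), 10 higher and 19 lower (against 17.8% and 16.6%). The arrays of the 2 stages did not overlap for 83 of the 113 genes (against 70.9% of all genes). Centring each array on its median moves all probe sets, whose own median difference was 0.22 here and -0.07 and 0.14 in the other comparisons. It gave 5 genes higher and 36 lower, and quantile normalization 7 and 27, while the share of higher calls among all genes tested moved from 50.4% to 24.3% and 45.5%. The summed immune, granulosa and theca signals were lower and the oocyte, stromal, smooth muscle and erythroid signals higher in the middle stage, without overlap, and their part in the carriers was not tested. Within the granulosa and theca lists genes went both ways, with 5 granulosa genes lower and 1 higher of 8 tested, and 1 theca gene lower and 3 higher of 6. Without primordial replicate 2, 18 genes were called, and without middle replicate 1, 19.

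Last follicles gave higher signals than middle follicles for the glucose carrier SLC2A3 (4.53-fold) and the magnesium carrier SLC41A1 (7.09-fold). They gave lower signals for the fatty acid carrier SLC27A6, for SLC46A2 (8.29-fold), for SLC31A2 (6.66-fold) and for the biotin carrier SLC5A6 (3.07-fold). In all, 15 of the 77 genes were called (19.5%, against 16% of all genes tested), 6 higher and 9 lower (against 8.8% and 7.23%). The primordial arrays enter this comparison through the estimate of the spread, the filter on low signals and the choice of probe set. A fit of the 4 middle and last arrays alone, with the same filter and probe sets, called 10 genes, 3 higher and 7 lower. With no filter, 10 of 113 were called (against 10.4% of all genes), 3 higher and 7 lower (against 5.38% and 5.01%). The arrays did not overlap for 58 of the 113 genes (against 54.9% of all genes). The split became 9 higher and 5 lower with median centring and 8 and 8 with quantile normalization, and the share of higher calls among all genes tested went from 54.9% to 75.2% and 56.5%. The summed oocyte signal was lower and the theca, smooth muscle, endothelial, immune and granulosa signals higher in the last stage, and their part was not tested. Of 8 granulosa genes tested 5 were higher, while AMH and FSHR were lower. Without middle replicate 1 the fit called 5 genes and without middle replicate 2 it called 6.

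Last follicles gave lower signals than primordial follicles for SLC2A5, SLC11A1 (7.6-fold), SLC7A1 (6.16-fold), SLC25A33 (3.14-fold) and SLC5A6 (2.82-fold). The amino acid exchanger subunit SLC3A1, on the brighter of its probe sets only, and the scaffold gene SLC9A3R2 were higher. In this comparison, which shares arrays with both others, 25 of the 77 genes were called (32.5%, against 32.9% of all genes tested), 7 higher and 18 lower (against 17.2% and 15.8%). The unfiltered count was 23 of 113 (against 22.6%), with 6 higher and 17 lower (against 11.6% and 11%). The arrays did not overlap for 70 of the 113 genes (against 63.9% of all genes). Median centring gave 4 higher and 22 lower, and quantile normalization 6 and 18, with 30.8% and 47.7% of the calls of all genes tested higher in place of 52.1%. The summed immune signal was lower in the last stage than in the primordial, without overlap. Summed stromal, smooth muscle, theca, endothelial, granulosa, oocyte and erythroid signals were higher, also without overlap. The part of these signals in the carriers was not tested. Without primordial replicate 2, 15 genes were called.

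The 70 called differences of these 3 comparisons held to different degrees. Leaving out each array in turn kept 13 of the 30 calls of middle against primordial, 5 of the 15 of last against middle and 11 of the 25 of last against primordial. Under every alternative that tested the gene, 12, 5 and 9 were kept. A gene that an alternative left out as too dim was not counted as lost by it. Where an array was left out, the remaining array of its stage was assumed to vary like those of the other stages. Counts over all genes are not given for the fits without an array. A lower count there cannot be read as particular to solute carriers. Calls lost without an array or under another setting are given beside each gene, apart from those lost with a replicate block.

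**Figure D1:**
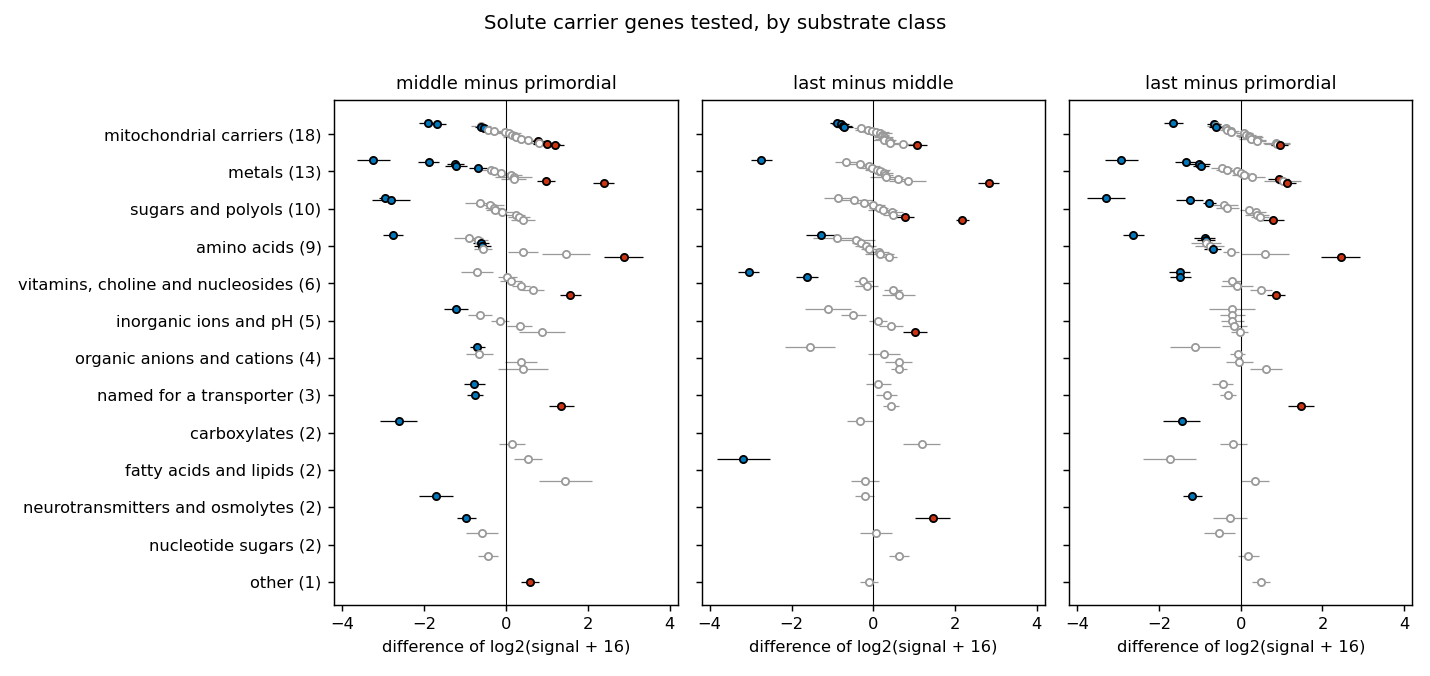
Log2 differences of signal + 16 for the 77 solute carrier genes tested, by substrate class, in the 3 comparisons. Each point is a gene with its standard error, red is called higher, blue is called lower and open is not called, and the number tested stands in parentheses after each class. In middle minus primordial 21 called points lie left of 0 and 9 right of it.

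Of 14 carriers of sugars and polyols 10 were tested, and SLC2A3 was the one called in all 3 comparisons. SLC2A3, a high-affinity glucose carrier, gave signals of 5953 and 6294.5 in the primordial stage, 762 and 799 in the middle stage and 3488.5 and 3696 in the last. The stages did not overlap, with the primordial arrays highest and the middle arrays lowest. The log2 difference was -2.95 ± 0.16 (adjusted p = 4.98e-06) for middle minus primordial, a 7.71-fold lower level, and 2.18 ± 0.16 (adjusted p = 4.70e-05) for last minus middle. For last minus primordial it was -0.77 ± 0.16 (adjusted p = 0.00694), and that call was lost when primordial replicate 2 was left out (adjusted p = 0.0599).

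SLC2A5, the fructose carrier, gave 438 and 413 on the primordial, 53.5 and 41.4 on the middle and 11.6 and 57.8 on the last arrays. Only the primordial arrays were high, and 1 of the last arrays was below 16. Differences from the primordial stage were -2.80 ± 0.46 (adjusted p = 0.00117) for the middle and -3.29 ± 0.46 (adjusted p = 0.00102) for the last stage. The size of the latter depends on the pseudocount and was -2.35 with 64 in place of 16. SLC5A10, a sodium-coupled carrier of mannose and fructose, gave 172 and 184 in the primordial stage, 153.5 and 114 in the middle stage and 84.9 and 49.9 in the last, each stage below the one before. Only last minus primordial was called, at -1.25 ± 0.34 (adjusted p = 0.0199), and the call was lost when either primordial array or last replicate 2 was left out (adjusted p = 0.0758 to 0.0977).

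SLC2A8, a hexose carrier of internal membranes, gave 312 and 375 on the primordial, 255 and 296 on the middle and 503.5 and 464 on the last arrays. Both last arrays lay above all others, and last minus middle was 0.78 ± 0.22 (adjusted p = 0.0413). That call was lost when any 1 of the 6 arrays was left out (adjusted p = 0.0576 to 0.214), and also without a filter on low signals (0.0717) and in a fit of only the 4 arrays compared (0.0582). SLC45A3, of a proton-coupled sugar carrier family, had a dimmer tested probe set that was not called for last minus primordial, at 0.31 ± 0.31 (adjusted p = 0.466). The probe set used gave 142 and 185 on the primordial and 296 and 286 on the last arrays, a difference of 0.78 ± 0.26 (adjusted p = 0.0457). Its call was lost when any 1 of the 6 arrays was left out (adjusted p = 0.0552 to 0.215), and also without a filter on low signals (0.0938), after median centring (0.13), after quantile normalization (0.126) and in a fit of only the 4 arrays compared (0.0561).

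The other tested sugar carriers were not called in any comparison. SLC5A4, of the sodium-coupled glucose carrier family, ranged over 613 to 1058, SLC37A4, which moves glucose 6-phosphate into the endoplasmic reticulum, over 545 to 1020.0 and SLC50A1, a sugar efflux carrier, over 274 to 463. SLC37A1 ranged over 65.6 to 163 and SLC45A2 over 122 to 217. In the class as a whole, the 2 calls of middle minus primordial were lower, the 2 of last minus middle higher, and of the 4 of last minus primordial 3 were lower and 1 higher. These are 20%, 20% and 40% of the 10 genes, against 45.5%, 16% and 32.9% of all genes tested. The median difference of the 10 genes was -0.28, 0.18 and -0.06 in this order. The intestinal carrier SLC5A1, the insulin-responsive SLC2A4 and SLC2A12 were below the filter, with signals of 1.8 to 43.4, 18.2 to 104 and 6.9 to 50.

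**Figure D2:**
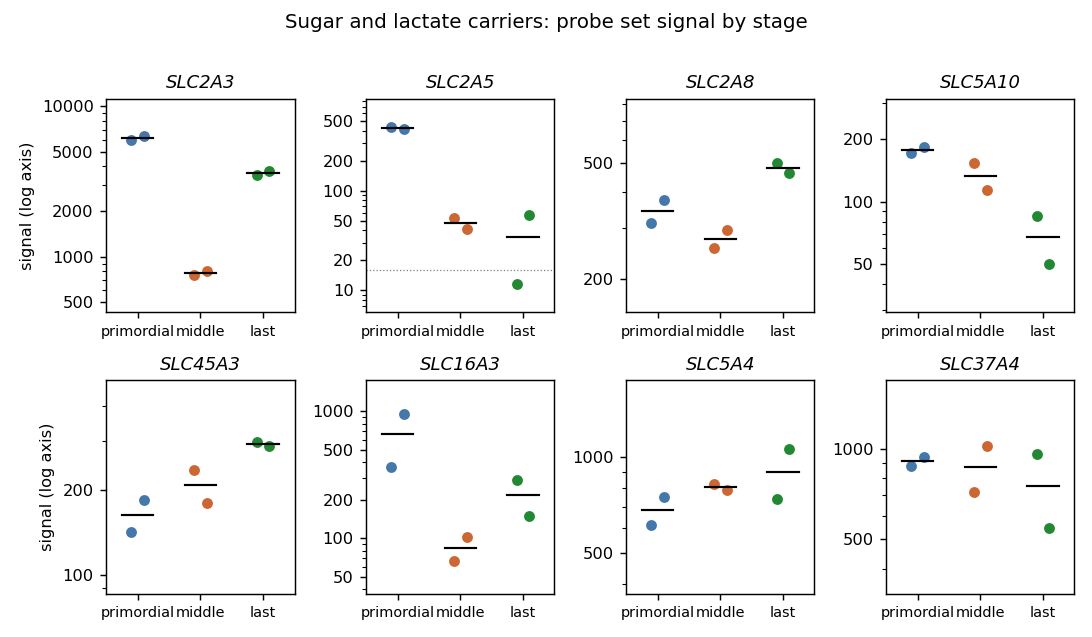
Signal of 8 carriers of sugars and lactate on each array (log axis), by stage. Points are arrays, short lines are means of 2 arrays, and a dotted line in panels of dim genes marks a signal of 16. SLC2A3, SLC2A5 and SLC16A3 are highest on both primordial arrays, and SLC2A8 and SLC45A3 on both last arrays.

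SLC16A3, the monocarboxylate carrier that exports lactate from glycolytic cells, gave 366 and 959 in the primordial stage, 67.0 and 103 in the middle stage and 286 and 152 in the last. Both primordial arrays lay above all others, although they differed from each other by more than those of most genes. The middle minus primordial difference was -2.62 ± 0.45 (adjusted p = 0.00146), a 6.15-fold lower level. The signal on the last arrays lay between the others, with a difference of 1.18 ± 0.45 (adjusted p = 0.105) from the middle stage, which missed the threshold, and of -1.44 ± 0.45 (adjusted p = 0.0362) from the primordial stage. The last of these was lost when primordial replicate 2, either middle array or last replicate 2 was left out (adjusted p = 0.0634 to 0.264), and moved to -0.76 without primordial replicate 2. It was also lost without a filter on low signals (0.0763), without an intensity trend (0.0562) and in a fit of only the 4 arrays compared (0.064). BSG, the chaperone that brings this carrier to the membrane, gave 1023 to 1761 and was not called in any comparison. The other monocarboxylate carrier gene, SLC16A13, ranged over 93.6 to 158 and was not called.

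SLC27A6, a carrier and activating enzyme of long-chain fatty acids, gave 289 and 55.7 on the primordial, 302 and 496.5 on the middle and 50.9 and 13.6 on the last arrays. The middle arrays were highest, the last arrays lowest and the primordial arrays lay far apart. Last minus middle was -3.18 ± 0.64 (adjusted p = 0.00997), and was lost when either middle array was left out (adjusted p = 0.073 to 0.0902). With the last arrays near 16 it was -3.82 with a pseudocount of 1 and -2.26 with 64. From primordial to middle it was 1.45 ± 0.64 (adjusted p = 0.0914) and was not called, except without primordial replicate 1, where it was 2.49 (adjusted p = 0.0104). Dimmer probe sets of SLC27A6, below the filter, did not show the fall from the middle to the last stage. Without the filter they gave -0.04 and 0.44 for last minus middle, neither called. SLC27A1, of the same family, gave 67.5 to 144 and was not called.

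Of 17 amino acid carrier genes 9 were tested, and 4 were called in middle minus primordial, 3 of them lower, which is 44.4% (45.5% of all genes tested), with a class median of -0.58. In last minus primordial 5 were called, 4 of them lower, which is 55.6% (32.9% of all genes tested), and the median was -0.76. Between the middle and last stages 1 was called, lower, which is 11.1% (16% of all genes tested). The medians of -0.58 and -0.76 stayed below 0 under each scaling tried, but over all 17 genes without the filter they were 0.17 and -0.24. SLC7A1, the carrier of arginine and lysine, gave 2572 and 3395 in the primordial stage, 394 and 451 in the middle stage and 562.5 and 386.5 in the last. The primordial arrays stood apart, and the arrays of the other stages overlapped. Its differences were -2.76 ± 0.25 (adjusted p = 4.44e-05) for middle minus primordial, a 6.79-fold lower level, and -2.62 ± 0.25 (adjusted p = 0.000148) for last minus primordial.

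SLC3A1, the heavy subunit that brings the cystine and dibasic amino acid exchanger to the membrane, differed in the other direction. Its signals were 1.6 and 23.8 on the primordial, 196 and 162 on the middle and 173 and 93.6 on the last arrays. Both primordial arrays lay below every other array. The first comparison gave 2.88 ± 0.48 (adjusted p = 0.00127) and last minus primordial 2.44 ± 0.48 (adjusted p = 0.00514). With primordial signals near 16 the size depends on the pseudocount, being 4.48 and 4.0 with 1 in place of 16, and 1.68 and 1.35 with 64. A second, dimmer probe set of SLC3A1 was below the filter, at 19.7 to 86.8, and did not show rises of this size. Without the filter it gave 0.63 ± 0.50 (adjusted p = 0.397) in the first comparison. In the third it gave -0.12 ± 0.50 (adjusted p = 0.911), so neither was called. The higher level of SLC3A1 thus rests on the probe set used. SLC7A9, the light subunit that pairs with SLC3A1, gave 2.8 to 28.2 over the 6 arrays and was below the filter too.

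SLC3A2, the heavy subunit of the other exchangers of this kind, gave 397 and 382 in the primordial stage, 127 and 311 in the middle stage and 219 and 229 in the last. Both primordial arrays were above the rest, but the middle arrays lay far apart, and middle minus primordial, at -0.91 ± 0.36 (adjusted p = 0.0604), missed the threshold. Without middle replicate 2 it was -1.51 (adjusted p = 0.0073), and it passed with median centring and with quantile normalization (adjusted p = 0.013 and 0.0278). SLC7A7, a light subunit that pairs with SLC3A2, gave 301 and 285.5 on the primordial, 154 and 199 on the middle and 135 and 171 on the last arrays. Its dimmer probe set, below the filter, gave -0.06 for middle minus primordial without the filter. The probe set used gave -0.69 ± 0.26 (adjusted p = 0.0544) there, which missed the threshold. It passed after median centring, after quantile normalization and in a fit of only the 4 arrays compared. The last minus primordial difference was -0.88 ± 0.26 (adjusted p = 0.0303), and the call was lost when either primordial array or last replicate 1 was left out (adjusted p = 0.104 to 0.125), and also without a filter on low signals (0.0665) and with the mean of the probe sets (0.29).

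The neutral amino acid carriers held smaller differences. SLC1A5, which exchanges glutamine, gave 780.4 and 752 in the primordial stage, 486 and 531 in the middle stage and 505 and 438 in the last, with both primordial arrays above the others. Middle minus primordial was -0.58 ± 0.20 (adjusted p = 0.0416) and last minus primordial -0.68 ± 0.20 (adjusted p = 0.0296). Median centring moved the first to -0.99. It was lost when any 1 of the primordial or middle arrays was left out (adjusted p = 0.0814 to 0.154), and also without a filter on low signals (0.0528), and the second when either primordial array or last replicate 2 was left out (adjusted p = 0.105 to 0.127). SLC38A1, a sodium-coupled glutamine carrier, gave 1643 and 2273 on the primordial, 1402 and 1228 on the middle and 958 and 1172 on the last arrays, with no overlap between stages. From primordial to last it was -0.86 ± 0.22 (adjusted p = 0.0166), lost when primordial replicate 2 or last replicate 1 was left out (adjusted p = 0.0795 to 0.137), and also with the mean of the probe sets (0.0858). SLC38A10 gave 695 and 665.5 in the primordial stage, 452 and 429 in the middle stage and 572 and 582.5 in the last and was lower in middle minus primordial at -0.61 ± 0.20 (adjusted p = 0.0303), a call lost when any 1 of the primordial or middle arrays was left out (adjusted p = 0.0807 to 0.128) and moved to -1.02 by median centring.

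SLC38A9, the lysosomal arginine sensor that signals to mTORC1, gave 1058 and 466 on the primordial, 1179 and 751 on the middle and 427 and 340.2 on the last arrays. Both last arrays were below all others, while the 2 earlier stages overlapped and their arrays lay far apart. Last minus middle was -1.27 ± 0.37 (adjusted p = 0.0441), lost when any 1 of the middle or last arrays was left out (adjusted p = 0.0725 to 0.3), and also without a filter on low signals (0.079), after median centring (0.0783), with the mean of the probe sets (0.102) and without an intensity trend (0.0763). SLC1A4, a carrier of alanine, serine and cysteine, gave 131.5 and 19.9 in the primordial stage, 191 and 181 in the middle stage and 71.3 and 121 in the last and was not called. Among genes below the filter, SLC36A2, a proton-coupled carrier of glycine and proline, gave 13.2 and 1.7 on the primordial, 57.7 and 61.9 on the middle and 13.1 and 25 on the last arrays. Without the filter its difference was 1.74 ± 0.40 (adjusted p = 0.0125) for middle minus primordial.

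Genes of the response to amino acid shortage and of amino acid synthesis were listed beside the carriers. Of 17 tested, 11 were called in the first comparison, 8 lower and 3 higher, 9 in the second, 4 lower and 5 higher, and 8 in the third, 6 lower and 2 higher. The shares were 64.7%, 52.9% and 47.1%, against 45.5%, 16% and 32.9% of all genes tested. ATF4, the transcription factor of that response, which induces several amino acid carriers, gave 17088.5 and 15761 in the primordial stage, 3150.4 and 3165 in the middle stage and 6589 and 8929.7 in the last. Its differences were -2.37 ± 0.17 (adjusted p = 1.61e-05) and 1.28 ± 0.17 (adjusted p = 0.0012) in the first 2 comparisons.

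**Figure D3:**
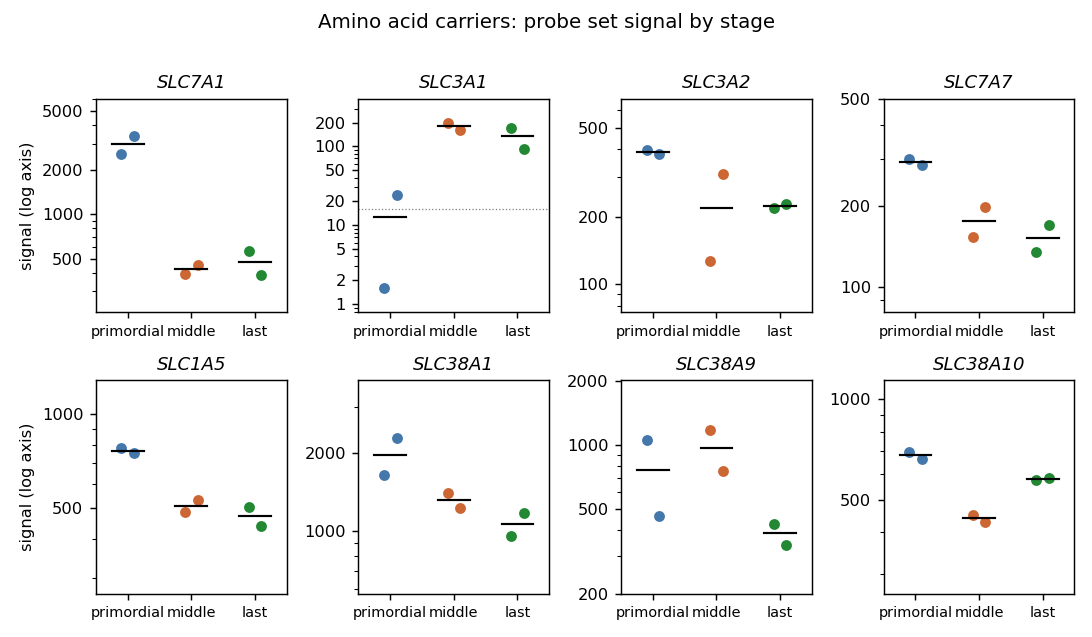
Signal of 8 amino acid carrier genes on each array (log axis), by stage. Points are arrays, short lines are means of 2 arrays, and a dotted line in panels of dim genes marks a signal of 16. SLC7A1 is highest on both primordial arrays and SLC3A1 lowest there.

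All 13 metal carrier genes were tested, with 7 called in middle minus primordial (5 lower, 2 higher), 2 between the middle and last stages (1 lower, 1 higher) and 6 between the primordial and last stages (4 lower, 2 higher). These are 53.8%, 15.4% and 46.2% of the 13, against 45.5%, 16% and 32.9% of all genes tested. The class median was -0.28, 0.15 and -0.09 in that order. SLC11A1, the iron and manganese carrier of macrophage phagosomes, gave 867 and 632.5 on the primordial, 73.5 and 55.4 on the middle and 49.0 and 136 on the last arrays. Only the primordial arrays were high. The differences were -3.24 ± 0.40 (adjusted p = 0.000251) for middle minus primordial and -2.93 ± 0.40 (adjusted p = 0.000901) for last minus primordial. Of the 15 immune cell genes tested, all 15 were lower in the first comparison and 13 in the third. The summed immune signal was at least 54280.5 on the primordial and at most 10993.7 on the other arrays. The part of immune cells in the SLC11A1 values was not tested. SLC11A2, the iron carrier of most other cells, gave 202 and 235 in the primordial stage, 157.5 and 176 in the middle stage and 98.4 and 99.4 in the last. Its last minus primordial difference was -1.02 ± 0.27 (adjusted p = 0.0179). That call was lost when either primordial array or last replicate 1 was left out, at -1.13 to -0.92. A dimmer tested probe set of SLC11A2 gave -0.72 ± 0.44 (adjusted p = 0.231) and was not called.

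The copper carriers SLC31A1 and SLC31A2 had different patterns. SLC31A1, the copper importer of the plasma membrane, gave 1583 and 1241 on the primordial, 599.9 and 570.1 on the middle and 720.3 and 696 on the last arrays, highest in the primordial and lowest in the middle stage without overlap. The middle minus primordial difference was -1.24 ± 0.20 (adjusted p = 0.00117) and last minus primordial -0.97 ± 0.20 (adjusted p = 0.0069), the latter lost when primordial replicate 1 was left out (adjusted p = 0.0639). With the mean of its bright and its dim probe set both calls were lost, at -0.64 and -0.42 (adjusted p = 0.129 and 0.345). SLC31A2, its homologue of endosomes and lysosomes, gave 234 and 147 in the primordial stage, 1021 and 1069 in the middle stage and 142 and 145 in the last. The middle arrays were the only high ones. The log2 difference was 2.39 ± 0.26 (adjusted p = 0.000121) for middle minus primordial and -2.74 ± 0.26 (adjusted p = 0.000178) for last minus middle. With the mean of the probe sets of SLC31A2 these came to 1.65 and -1.65. The 9 oocyte genes tested were all higher in the first comparison and all lower in the second, and their part in the SLC31A2 values was not tested.

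SLC41A1, a magnesium carrier of the plasma membrane, gave 1459 and 2409 on the primordial, 432 and 564 on the middle and 3842 and 3371 on the last arrays. The stages did not overlap, and the last arrays were highest. From primordial to middle it was -1.89 ± 0.26 (adjusted p = 0.000421) and last minus middle 2.83 ± 0.26 (adjusted p = 0.000143), a 7.09-fold higher level. All 4 tested probe sets of this gene were higher in last minus middle, at log2 differences of 1.66 to 2.83, but only 2 of the 4 were called lower in middle minus primordial, which came to -0.89 with the mean of the probe sets. The third comparison gave 0.93 ± 0.26 (adjusted p = 0.0223), lost when primordial replicate 1 or last replicate 1 was left out (adjusted p = 0.0928 to 0.167), and also after median centring (0.0665); without primordial replicate 1 it was 0.58.

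Zinc carriers differed among themselves. SLC30A5, which loads zinc into the early secretory pathway, gave 428 and 312 in the primordial stage, 753 and 709 in the middle stage and 833.5 and 795 in the last, both primordial arrays being lowest. Differences were 0.97 ± 0.22 (adjusted p = 0.0061) for middle minus primordial and 1.12 ± 0.22 (adjusted p = 0.00499) for last minus primordial, the first lost when primordial replicate 2 was left out (adjusted p = 0.0588) and after median centring (0.082) and with the mean of the probe sets (0.222), the second with the mean of the probe sets (0.198). Another tested probe set of SLC30A5 gave 406 and 503 on the primordial, 278 and 199.7 on the middle and 394 and 299 on the last arrays and was lower in middle minus primordial, at -0.89 ± 0.26 (adjusted p = 0.0195). SLC30A5 was the only one of 13 genes with 2 or more tested probe sets where 2 were called in opposite directions, so its direction is uncertain.

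SLC39A14, an importer of zinc and iron, gave 503 and 555 in the primordial stage, 176 and 269 in the middle stage and 169.5 and 236 in the last, with both primordial arrays highest. It was lower in middle minus primordial, at -1.22 ± 0.28 (adjusted p = 0.00599), and in last minus primordial, at -1.33 ± 0.28 (adjusted p = 0.00635). The first call was lost when middle replicate 1 was left out (adjusted p = 0.0573). With the mean of its bright and a dim probe set (9.8 to 109) both were lost, and the second turned to 0.05 (adjusted p = 0.923). SLC39A7, which releases zinc from the endoplasmic reticulum, gave 997 and 938 on the primordial, 514.5 and 686 on the middle and 1012 and 819 on the last arrays. Its middle minus primordial difference of -0.69 ± 0.22 (adjusted p = 0.0296) was lost when either primordial array or middle replicate 1 was left out (adjusted p = 0.0919 to 0.172) and came to -1.10 after median centring. Last minus middle, at 0.60 ± 0.22 (adjusted p = 0.0936), missed the threshold.

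The remaining zinc carriers were not called in any comparison. SLC39A1, of the plasma membrane, ranged over 982 to 1331, SLC39A4, the intestinal importer, over 163 to 297, and SLC30A3, known from synaptic vesicles, over 324 to 594. SLC39A5 ranged over 165 to 242 and SLC39A2 over 70.2 to 287. Of 8 tested genes of zinc and iron handling without a solute carrier name, 5 were called in middle minus primordial, 4 lower and 1 higher, which is 62.5% (45.5% of all genes tested). HMOX1, which frees iron from heme, gave 5679 and 6807 in the primordial stage, 1154 and 1373 in the middle stage and 1034 and 1551 in the last, a difference of -2.29 ± 0.23 (adjusted p = 7.87e-05), and MT3, a zinc-binding metallothionein, 352 and 309 on the primordial, 1947 and 1674 on the middle and 1040.2 and 1274 on the last arrays, a difference of 2.40 ± 0.21 (adjusted p = 4.14e-05).

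**Figure D4:**
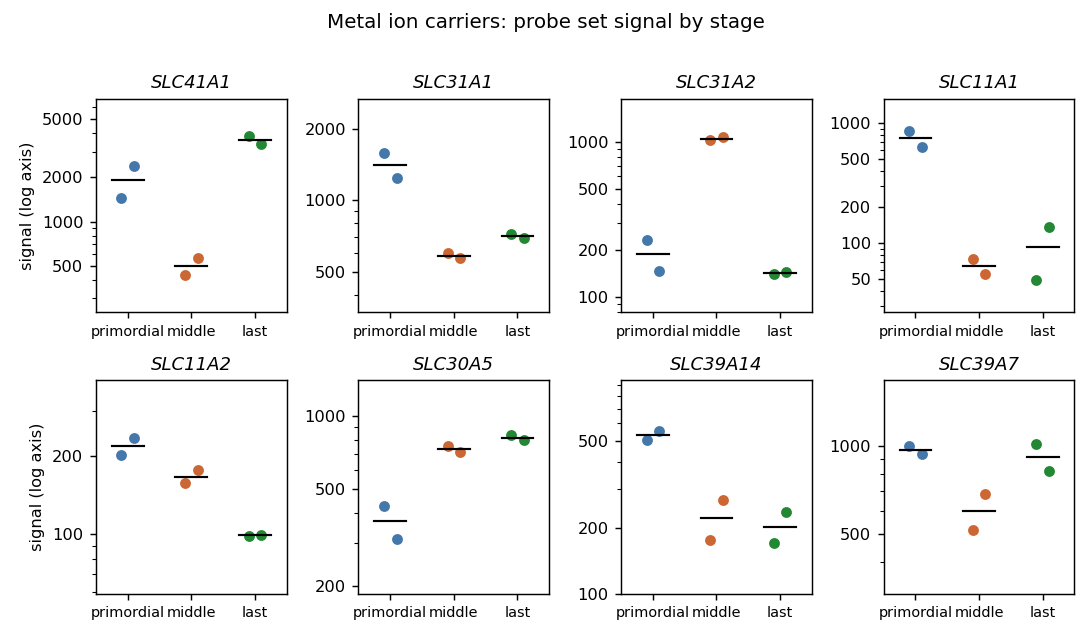
Signal of 8 metal carrier genes on each array (log axis), by stage. Points are arrays and short lines are means of 2 arrays. SLC31A2 is high on both middle arrays, SLC11A1 on both primordial arrays and SLC41A1 on both last arrays.

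Of 21 genes of the SLC25 family 18 were tested, with 7 called in middle minus primordial (4 lower, 3 higher), 5 between the middle and last stages (4 lower, 1 higher) and 4 between the primordial and last stages (3 lower, 1 higher). These are 38.9%, 27.8% and 22.2%, against the 45.5%, 16% and 32.9% of all genes tested. The median of middle minus primordial was 0.11, but -0.31 with median centring and -0.09 after quantile normalization. The median of last minus primordial was 0.11 as well and turned to -0.12 and -0.03. That of last minus middle was 0.18, 0.37 and 0.13 in the same order, above 0 under each scaling although 4 of its 5 calls were lower. The split of the calls moved to 3 higher and 1 lower with median centring and to 2 higher and 3 lower after quantile normalization.

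The pyrimidine nucleotide carriers SLC25A33 and SLC25A36 held the largest differences of the family. SLC25A33 gave 2148 and 1689 in the primordial stage, 461 and 536 in the middle stage and 514.5 and 691 in the last. Both primordial arrays stood above the others, at differences of -1.90 ± 0.23 (adjusted p = 0.000219) and -1.65 ± 0.23 (adjusted p = 0.000968) for the middle and last stage, the second -0.92 with the mean of the probe sets. SLC25A36 gave 531 and 569 on the primordial, 172 and 148 on the middle and 334 and 378 on the last arrays, with no overlap between stages and the middle arrays lowest. The first comparison gave -1.69 ± 0.22 (adjusted p = 0.000349), and last minus middle was 1.08 ± 0.22 (adjusted p = 0.0109), which was lost when either middle array was left out (adjusted p = 0.0563 to 0.0616).

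SLC25A37, the iron importer mitoferrin 1, was highest on the middle arrays. Its signals were 300.3 and 257.5 in the primordial stage, 669.7 and 656 in the middle stage and 359.9 and 390.0 in the last, with no overlap. Its rise from the primordial stage was 1.21 ± 0.21 (adjusted p = 0.00159), or 0.79 after median centring, while last minus middle, at -0.80 ± 0.21 (adjusted p = 0.0316), was lost when any 1 of the middle or last arrays was left out (adjusted p = 0.063 to 0.159), and also without a filter on low signals (0.0518), after median centring (0.0886) and with the mean of the probe sets (0.0532). The summed signal of 3 erythroid genes was 741.9 to 814.3 on the primordial, 1683.2 to 1811.0 on the middle and 1194.2 to 1433.4 on the last arrays, also highest in the middle stage, and its part was not tested.

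SLC25A12, the aspartate and glutamate exchanger of the malate-aspartate shuttle, gave 453 and 491 on the primordial, 835 and 825 on the middle and 568 and 444 on the last arrays, highest on both middle arrays. Its differences were 0.79 ± 0.21 (adjusted p = 0.0132) and -0.71 ± 0.21 (adjusted p = 0.0493) in the first 2 comparisons. The first was lost when primordial replicate 1 or either middle array was left out (adjusted p = 0.0528 to 0.0742) and after median centring (0.201), the second when either primordial array, either middle array or last replicate 2 was left out (adjusted p = 0.0757 to 0.2), and also with a pseudocount of 1 (0.052), without a filter on low signals (0.0686), after median centring (0.15), after quantile normalization (0.0656), without an intensity trend (0.0649) and in a fit of only the 4 arrays compared (0.074).

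SLC25A20, which brings acylcarnitines into mitochondria for fatty acid oxidation, gave 573 and 441 in the primordial stage, 733 and 753.5 in the middle stage and 1002 and 985 in the last. Each stage lay above the one before, and last minus primordial was 0.96 ± 0.21 (adjusted p = 0.00788), lost when primordial replicate 2 was left out (adjusted p = 0.0706). SLC25A17, which despite its family is a cofactor carrier of peroxisomes, gave 1558.5 and 1585 on the primordial, 1862 and 1838 on the middle and 1030.3 and 954 on the last arrays, both last arrays being lowest. Last minus middle was -0.89 ± 0.18 (adjusted p = 0.00915), lost when middle replicate 1 was left out (adjusted p = 0.0677), and last minus primordial -0.66 ± 0.18 (adjusted p = 0.0198), lost when either primordial array or last replicate 2 was left out (adjusted p = 0.0652 to 0.103).

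The carriers SLC25A21, SLC25A30 and SLC25A24 passed the test in 1 comparison each. SLC25A21, a carrier of oxodicarboxylates, gave 1004 and 1098 on the middle and 697 and 559.7 on the last arrays, at -0.73 ± 0.21 (adjusted p = 0.0382). It was lost when either primordial array, either middle array or last replicate 2 was left out (adjusted p = 0.0622 to 0.146), and also after median centring (0.129), without an intensity trend (0.0574) and in a fit of only the 4 arrays compared (0.0616). SLC25A30 gave 162.5 and 81.9 on the primordial and 230.3 and 266 on the middle arrays, at 0.99 ± 0.32 (adjusted p = 0.0305). It was lost when primordial replicate 2 or either middle array was left out (adjusted p = 0.0929 to 0.209), with a difference of 0.56 without primordial replicate 2, and also without a filter on low signals (0.0621), after median centring (0.174) and after quantile normalization (0.138). SLC25A24, which exchanges ATP-magnesium for phosphate, gave 2748 and 3501.5 on the primordial and 2144 and 1947 on the last arrays, at -0.60 ± 0.18 (adjusted p = 0.0322). It was lost when primordial replicate 2, either middle array or either last array was left out (adjusted p = 0.05 to 0.229), and also after quantile normalization (0.0686), with the mean of the probe sets (0.594), without an intensity trend (0.069) and in a fit of only the 4 arrays compared (0.0514). The mean of the probe sets gave -0.16.

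The phosphate carrier and the exchangers of ADP and ATP feed ATP synthesis. SLC25A3, the phosphate carrier, gave 14202 and 17596.5 in the primordial stage, 9733 and 11049 in the middle stage and 12922 and 14123 in the last, the middle arrays being lowest. Middle minus primordial was -0.61 ± 0.15 (adjusted p = 0.00841), lost when primordial replicate 2 or middle replicate 1 was left out (adjusted p = 0.0748 to 0.0783), and also after quantile normalization (0.205) and without an intensity trend (0.0516). Quantile normalization gave -0.22 and median centring -1.02. SLC25A6, an exchanger of ADP and ATP, gave 15340.4 and 16774.5 on the primordial, 9353.5 and 12869 on the middle and 12065 and 13442 on the last arrays, with the primordial arrays highest. Its difference of -0.55 ± 0.17 (adjusted p = 0.0231) was lost when either primordial array or middle replicate 1 was left out (adjusted p = 0.0565 to 0.177), being -0.32 without middle replicate 1, and also without a filter on low signals (0.0589), after quantile normalization (0.356) and without an intensity trend (0.0886). For SLC25A6 these scalings gave -0.16 and -0.96. SLC25A5, another ADP and ATP exchanger, gave 3985 and 3179 in the primordial stage, 2419 and 2825 in the middle stage and 3221 and 2824 in the last, and middle minus primordial, at -0.44 ± 0.19 (adjusted p = 0.0753), was not called. SLC25A4, the third, gave 956 and 835 on the primordial, 714 and 471 on the middle and 1042 and 909.8 on the last arrays, with -0.61 ± 0.24 (adjusted p = 0.0622) and 0.73 ± 0.24 (adjusted p = 0.0664) in the first 2 comparisons, and was called in neither. These 3 genes are close in sequence, so that their probe sets may share signal.

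The other tested members of the family were not called in any comparison. SLC25A1, the citrate carrier, ranged over 808 to 1418, SLC25A11, the oxoglutarate and malate exchanger, over 244 to 401, and SLC25A38, a glycine carrier needed for heme synthesis, over 209 to 597. SLC25A39 ranged over 546 to 780.0 and SLC25A14 over 115 to 186. Below the filter were SLC25A46, SLC25A48 and SLC25A51, of which SLC25A51, the carrier of NAD, was the only solute carrier gene at 16 or less on all 6 arrays.

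**Figure D5:**
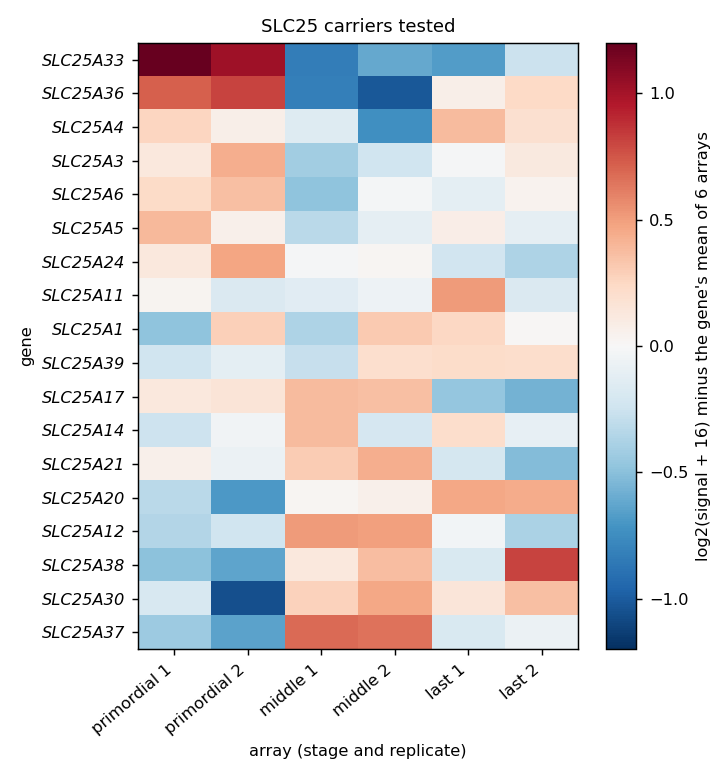
Log2(signal + 16) of the 18 SLC25 carriers tested, minus each gene's mean over the 6 arrays, by array. Genes are ordered by middle minus primordial, red is above and blue below the gene's mean. SLC25A33 and SLC25A36 are red on the primordial arrays and SLC25A37 on the middle arrays.

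Of 12 carriers of vitamins, choline and nucleosides 6 were tested, with 1 called higher in middle minus primordial, 2 lower in last minus middle, and 1 higher and 2 lower in the third comparison. These are 16.7%, 33.3% and 50% of the 6, against 45.5%, 16% and 32.9% of all genes tested. SLC46A2, a relative of the intestinal folate carrier known from thymic stroma, gave 353.5 and 332 in the primordial stage, 968 and 1139.8 in the middle stage and 139 and 90.5 in the last. The middle arrays were highest and the last arrays lowest, without overlap. All 3 comparisons were called, at 1.57 ± 0.25 (adjusted p = 0.000967) for middle minus primordial, -3.05 ± 0.25 (adjusted p = 7.95e-05) for last minus middle, 8.29-fold lower, and -1.48 ± 0.25 (adjusted p = 0.0025) for last minus primordial. The summed oocyte signal, at least 20026.7 on the middle and at most 882.3 on the other arrays, moved with the first 2 of these, and its part was not tested. SLC5A6, the sodium-coupled carrier of biotin and pantothenate, gave 388 and 324 on the primordial, 358 and 421 on the middle and 138 and 96.3 on the last arrays. Only the last arrays were low. Last minus middle was -1.62 ± 0.26 (adjusted p = 0.00329) and last minus primordial -1.50 ± 0.26 (adjusted p = 0.00277).

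SLC44A2, a choline carrier, gave 565 and 543 in the primordial stage, 735 and 711 in the middle stage and 849 and 1217 in the last, each stage above the one before. Last minus primordial was 0.86 ± 0.22 (adjusted p = 0.0178), lost when either primordial array or last replicate 2 was left out (adjusted p = 0.0694 to 0.091), and also after median centring (0.0588) and with the mean of the probe sets (0.119). SLC46A1, the folate carrier of the gut, ranged over 249 to 508, SLC46A3 over 57.7 to 159 and SLC52A2, a riboflavin carrier, over 304 to 449.5, and these 3 were not called in any comparison. SLC28A3, a concentrative nucleoside carrier below the filter, gave 24.7 and 20.2 on the primordial, 86.8 and 69.6 on the middle and 5.7 and 17.4 on the last arrays. Without the filter its difference was 1.29 ± 0.38 (adjusted p = 0.0356) for middle minus primordial and -1.80 ± 0.38 (adjusted p = 0.0251) for last minus middle.

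SLC6A8, the creatine carrier, gave 1686.5 and 1579 in the primordial stage, 656 and 1039 in the middle stage and 688 and 732 in the last. The primordial arrays were highest, and the other stages overlapped. The middle minus primordial difference was -0.97 ± 0.24 (adjusted p = 0.00901), lost when primordial replicate 1 or middle replicate 1 was left out (adjusted p = 0.0542 to 0.0658) and at -0.64 without middle replicate 1. The last minus primordial difference was -1.18 ± 0.24 (adjusted p = 0.00569). SLC6A4, the serotonin carrier, gave 269.6 and 434 on the primordial, 93.6 and 94.2 on the middle and 172 and 462 on the last arrays. The middle arrays were lowest, and the last arrays lay far apart. Its middle minus primordial difference of -1.71 ± 0.42 (adjusted p = 0.00886) was lost when primordial replicate 2 or either middle array was left out (adjusted p = 0.053 to 0.0691). Its last minus middle difference of 1.45 ± 0.42 (adjusted p = 0.0435) was lost when primordial replicate 2, either middle array or last replicate 2 was left out (adjusted p = 0.0507 to 0.212), being 0.77 without last replicate 2, and also without a filter on low signals (0.0874), without an intensity trend (0.0662) and in a fit of only the 4 arrays compared (0.0522).

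Of 11 carriers of inorganic ions 5 were tested, and SLC12A4, a potassium chloride cotransporter that regulates cell volume, was the one called. It gave 158 and 163 in the primordial stage, 61.7 and 57.4 in the middle stage and 148 and 127 in the last, with the middle arrays lowest. From primordial to middle it was -1.22 ± 0.30 (adjusted p = 0.009), lost when primordial replicate 2 was left out (adjusted p = 0.0521). Last minus middle was 1.02 ± 0.30 (adjusted p = 0.0473), lost when any 1 of the 6 arrays was left out (adjusted p = 0.0768 to 0.164), and also with a pseudocount of 1 (0.0513), without a filter on low signals (0.087) and in a fit of only the 4 arrays compared (0.0902). The other 4 ranged over 336 to 424 for the lysosomal anion exchanger SLC26A11, 155 to 315 for the anion exchanger SLC26A6, 121 to 253 for the chloride bicarbonate exchanger SLC4A2 and 31.1 to 168 for the sodium proton exchanger SLC9A5. SLC8A1, the sodium calcium exchanger, was below the filter at 16.3 and 1.1 on the primordial, 92.5 and 48.6 on the middle and 27.7 and 37.2 on the last arrays. Without the filter its middle minus primordial difference was 1.83 ± 0.45 (adjusted p = 0.0174).

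Of 9 carriers of organic anions and cations 4 were tested. SLCO3A1, an organic anion carrier that takes prostaglandins, gave 1867.5 and 1771 in the primordial stage, 1065 and 1168 in the middle stage and 1926 and 1549 in the last. The middle arrays were lowest and the other stages overlapped. The fall from the primordial to the middle stage was -0.70 ± 0.19 (adjusted p = 0.0146), lost when either primordial array or middle replicate 1 was left out (adjusted p = 0.06 to 0.0826) and at -1.11 after median centring. Last minus middle, at 0.62 ± 0.19 (adjusted p = 0.0523), missed the threshold. It passed after median centring, after quantile normalization and with the mean of the probe sets. A dimmer tested probe set of SLCO3A1 was called higher in last minus middle, at 1.03 ± 0.27 (adjusted p = 0.0283). Another, at 0.47 ± 0.23 (adjusted p = 0.19), was not called. SLCO2B1, a carrier of steroid sulfates, ranged over 156 to 411, SLC22A5, the carnitine carrier, over 126 to 364, and SLC22A6, known from the kidney, over 7.7 to 136, and these 3 were not called in any comparison.

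Among the small classes, SLC33A1, which brings acetyl-CoA into the endoplasmic reticulum, gave 308 and 278 on the primordial and 430.0 and 468.5 on the middle arrays. The difference of 0.59 ± 0.22 (adjusted p = 0.047) was lost when any 1 of the primordial or middle arrays was left out (adjusted p = 0.101 to 0.191), and also without a filter on low signals (0.0714), after median centring (0.556), after quantile normalization (0.244) and with the mean of the probe sets (0.146). Median centring gave 0.18. The Golgi carriers of nucleotide sugars SLC35A3 (174 to 336.5) and SLC35A4 (125 to 344) were not called in any comparison by limma, and 1 of their 6 differences had an unadjusted p under 0.05. The phosphate carriers SLC34A2 and SLC17A1 were below the filter, at 50 to 87.9 and 1.1 to 51.5.

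The naming rule also took 3 genes that are not carriers. SLC9A3R1 and SLC9A3R2 are scaffold proteins that hold transporters in the apical membrane, and SLC2A4RG binds the promoter of the glucose carrier gene SLC2A4. SLC9A3R2 gave 88.2 and 162 on the primordial, 291 and 378 on the middle and 407 and 321 on the last arrays, both primordial arrays being lowest. Its differences were 1.35 ± 0.31 (adjusted p = 0.00624), lost when middle replicate 2 was left out (adjusted p = 0.0561), and 1.47 ± 0.31 (adjusted p = 0.00678) for last minus primordial. SLC9A3R1 gave 1838 and 1509 in the primordial stage, 902 and 1068 in the middle stage and 1387 and 1279 in the last, a middle minus primordial difference of -0.75 ± 0.20 (adjusted p = 0.0123) that was lost when primordial replicate 1 or middle replicate 1 was left out (adjusted p = 0.0791 to 0.101) and came to -1.17 after median centring. SLC2A4RG gave 303 and 317 on the primordial and 145 and 209 on the middle arrays, a difference of -0.77 ± 0.26 (adjusted p = 0.0334), or -1.19 after median centring, lost when either primordial array or middle replicate 1 was left out (adjusted p = 0.0997 to 0.187), and also without a filter on low signals (0.0652). Without these 3 genes, 27 of 74 genes were called between the primordial and middle stages, 15 between the middle and last and 24 between the primordial and last. The shares of all genes tested were 45.5%, 16% and 32.9% in this order.

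The 36 genes below the filter had signals of 0.6 to 122.2, and 24 of them stayed under 60 on every array. Besides SLC36A2, SLC8A1 and SLC28A3, the glucose carrier SLC2A2 was called among them without the filter. It gave 27.6 and 46.8 on the primordial, 5.9 and 10.1 on the middle and 5.3 and 7.8 on the last arrays, at -1.13 ± 0.35 (adjusted p = 0.0422) for middle minus primordial and -1.22 ± 0.35 (adjusted p = 0.0474) for last minus primordial. In each of these 4 genes at least 1 stage lay at or near 16, so that the size of the difference rests on the pseudocount.

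Over all 113 genes the summed signal was 83738.1 and 89324.1 in the primordial, 57141.4 and 65138.8 in the middle and 69594.1 and 70484.3 in the last stage. The primordial arrays were highest and the stages did not overlap. The median signal of the 113 genes was 211.7 and 185.0, 167.6 and 176.4, and 162.9 and 170.8 in the same order, with the primordial arrays again above the others, while that of all probe sets was 119.3 and 125.4, 169.9 and 165.0, and 140.3 and 150.6, with the primordial arrays lowest. The difference between a gene's 2 arrays had a median of 0.21, 0.24 and 0.31 on the log2 scale in the primordial, middle and last stage over the 77 genes tested, and of 0.20, 0.24 and 0.24 over all genes tested. It was above 1 for 6, 2 and 7 of the 77 genes.

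Beside the solute carriers, 19 tested carriers without such a symbol and 15 tested pumps, chaperones and regulators of transport were listed. Of the carriers, 10 were called in the first comparison (8 lower, 2 higher), 4 in the second (1 lower, 3 higher) and 5 in the third, all lower, which is 52.6%, 21.1% and 26.3% (45.5%, 16% and 32.9% of all genes tested). Of the regulators 8 were called in the first (4 lower, 4 higher), 4 in the second (1 lower, 3 higher) and 6 in the third (4 lower, 2 higher), which is 53.3%, 26.7% and 40%. SGK1, a kinase that raises the surface level of many carriers, gave 4498.5 and 3975 in the primordial stage, 683 and 494.5 in the middle stage and 2281 and 2541 in the last, at -2.83 ± 0.21 (adjusted p = 1.80e-05) and 2.02 ± 0.21 (adjusted p = 0.000269) in the first 2 comparisons. PDZK1, a scaffold of carriers, gave 28.0 and 35.4 on the primordial, 432 and 458 on the middle and 18.2 and 16.3 on the last arrays, high only on the middle arrays, at 3.28 ± 0.36 (adjusted p = 0.000126) and -3.79 ± 0.36 (adjusted p = 0.000172).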

How the data were processed

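The deposited table holds linear signal intensities of 24123 probe sets of the Affymetrix porcine array, 124 of them controls, which were left out. The authors made them with the Affymetrix software GCOS, per the submitters' processing notes. From the values, the 2% trimmed mean is 500.1 on every array, so each array was scaled to a common target, and no further normalization was applied. Symbols came from the platform annotation, which gives 10069 probe sets 1 symbol, 198 several and 13732 none. Of the 113 members, 112 matched RefSeq by gene identifier, and no symbol changed.

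Signals were tested with limma 3.58.1 in R 4.3.3 as log2(signal + 16), with all 6 arrays in 1 fit and an intensity trend (3 residual and 6.33 prior degrees of freedom). Probe sets in the lowest 40% by mean signal (under 91.3) were left out, and the Benjamini-Hochberg adjustment ran over the other 14399. The scripts were tested on simulated data. Tables and figures used Python 3.11.15, pandas 2.3.3, numpy 2.4.6 and matplotlib 3.10.9. Alternatives were pseudocounts of 1 and 64, no filter, the lowest 60% left out, median centring, quantile normalization, the mean of a gene's probe sets, a replicate block, no trend, only the 4 arrays compared, and each array left out in turn. Fits of fewer arrays kept the filter and the probe sets chosen over all 6 arrays.

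The named genes were the 10 called genes with the largest differences in each direction whose arrays do not overlap, the 3 brightest genes of each substrate class, a set list, and genes whose probe sets were called in opposite directions. Other tested genes were added after their values were seen. The members and lists were chosen with earlier results of these data known. Of the set list, SLC7A5, SLC7A11, SLC38A2, SLC38A3, SLC6A9, SLC16A1, SLC40A1, SLC39A8, SLC30A1, SLC20A1 and SLCO2A1 were not analysed here, and neither were 5 probe sets with several symbols.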

Additional observations from a re-analysis of the deposited data

How the results depend on the processing

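Of the 70 called differences, 26 kept their direction and their call in every alternative that tested the gene, 43 lost the call in at least 1 and 1 changed sign. SLC39A14 in last minus primordial came to 0.054 (adjusted p = 0.923) with the mean of its probe sets. Genes that an alternative left out as too dim were not counted as lost by it. Median centring gave 5 genes higher and 36 lower in middle minus primordial, 5 lower in last minus middle and 4 higher in last minus primordial. In last minus middle 3 genes were higher with no filter and 3 in a fit of only 4 arrays. In last minus primordial 4 were higher with the lowest 60% left out, and the mean of probe sets called 15 genes, 3 of them higher.

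With 1 array left out, the first comparison called 18 to 32 genes (5 to 10 higher, 12 to 22 lower), the second 5 to 12 (2 to 5 higher, 3 to 7 lower), the third 15 to 24 (4 to 8 higher, 11 to 17 lower) and the F-test 20 to 34. Counts over all genes are not given for these fits or for the one with a replicate block. Their counts cannot be read as particular to solute carriers. Of 10 uncalled differences followed through the alternatives, 8 were called in at least 1 alternative.

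Deviations of same-numbered arrays correlated at 0.06, 0.03 and -0.05. With 2 arrays a stage this cannot exclude that the replicate numbers pair the arrays, and the titles do not say. With a replicate block, 29, 11 and 25 genes were called in the 3 comparisons and 35 by the F-test. The block ended the calls of SLC1A5 and SLC33A1 (adjusted p = 0.0558 and 0.0595) in the first, of SLC2A8, SLC12A4, SLC25A12 and SLC25A21 (0.0545, 0.064, 0.0677 and 0.0538) in the second and of SLC45A3 (0.0617) in the third. With 2 arrays a stage, small differences and signals near 16 cannot be resolved.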
